A study of Mus musculus with 10 samples.

Results

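A set of 9 genes that skeletal muscle is known to switch when it turns from glucose to fat was followed in the tibialis anterior, a fast muscle of the lower leg, in mice with and without a tumor. They are Pdk4 and Pdk2, Ucp3 and Ucp2, Cpt1b and Cpt1a, Angptl4, Cd36 and Lpl. They were taken as a fixed list of names, which was chosen with earlier results of these data known. All 9 were found among the 39179 genes listed in every sample. All 9 also passed the filter on low counts that kept 12690 genes for testing. The comparison asked how much of a fasting type of fuel switch, of the kind driven by the PPAR receptors, was seen in the muscle of tumor-bearing mice.

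Each of the 10 samples is the tibialis anterior of 1 mouse. The 6 LLC mice had received Lewis Lung Carcinoma cells, a mouse lung cancer line, under the skin, 750000 cells into each of 2 flanks. The 4 Control mice had received PBS alone in the same places and carried no tumor. The labels of the samples give the strain as C57BL/6J, the age at injection as 10 weeks and the muscle as taken on day 23, while the text of the series and the methods give C57BL/10 males of 8 weeks studied on day 22. This difference could not be settled here. No genetic change was made in either group. The LLC mice that were sequenced were survivors to the end of the experiment, and food was available without restriction to all mice per the methods. Food intake was not analysed here, so no value says how much the LLC mice had eaten before the muscle was taken.

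Total RNA was sequenced in 10 libraries, with total counts between 16693209 and 21303084, so that 3 counts, the smallest level taken as detected, stand for 0.148 to 0.174 CPM (counts scaled by library size and by edgeR's TMM factor). All libraries ran in 1 lane, so no sequencing batch separates them. LLC 1 stood apart from the other LLC samples, with the largest scaling factor (1.17, against 0.930 to 1.07 in the other 9) and the smallest share of mitochondrially encoded counts (22.0%, against 22.9% to 30.7%), and the values that moved most without it are given both ways. The tissue label was met by the markers of fast fibers, whose summed level ran from 142923 to 151880 CPM in Control and from 102333 to 158406 CPM in LLC. Genes of slow and oxidative fibers summed to 4191 to 5196 CPM in Control and to 1322 to 3871 CPM in LLC, without overlap. Of these 9 genes 1 (Myl2, named after its value was seen) passed the threshold, as lower, beside 3.99% of all tested genes. Without LLC 1, 4 of them passed as lower, beside 678 of all 12624 genes tested in that fit. Samples of a group are separate animals, and p-values measure the spread between them.

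As background, a fasting muscle spares glucose and burns fatty acids. Fatty acids reach the fiber when lipoprotein lipase on the capillary wall splits triglycerides, are taken up with the help of CD36, and enter mitochondria as acylcarnitines made by carnitine palmitoyltransferase 1 (CPT1). At the same time pyruvate dehydrogenase, the gate through which pyruvate becomes acetyl-CoA, is shut by pyruvate dehydrogenase kinases. Fatty acids and hormones drive much of this program through the nuclear receptors PPAR alpha and PPAR delta, and Pdk4, Ucp3, Angptl4 and Cpt1 genes are textbook targets of these receptors. Glucocorticoids and the FoxO factors act on several of the same genes, Pdk4 among them.

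In Control muscle the 9 genes spanned a wide range of abundance. Per kilobase of exon, Pdk4 stood highest at 161 ± 36.8 CPM per kb (SD, n = 4), followed by Pdk2 at 135 ± 4.45, Cd36 at 76.1 ± 6.16, Ucp3 at 44.8 ± 10.1 and Lpl at 37.9 ± 2.65. Far below came Cpt1b at 1.47 ± 0.190, Cpt1a at 0.897 ± 0.0765, Ucp2 at 0.748 ± 0.185 and Angptl4 at 0.630 ± 0.280 CPM per kb (SD, n = 4). Neighbors in this order whose Control ranges overlapped were Pdk4 and Pdk2, Ucp3 and Lpl, Cpt1a and Ucp2, and Ucp2 and Angptl4. In LLC the ranges of Pdk4 and Pdk2 no longer overlapped, with Pdk4 at 165 to 572 and Pdk2 at 124 to 141 CPM per kb. Of the 3372 exonic bases of Cpt1b 81.38% are also exons of a readthrough gene on the same strand (Gm44502) in GENCODE M21, which leaves 628 bases of its own. Whether the annotation used for counting held Gm44502 is not given in the sources used here, and no value of that gene was analysed, so the part of this overlap in the low level of Cpt1b was not tested.

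Of the 9 genes, 1 passed the threshold, set at a change of at least 1.5-fold with an adjusted p of no more than 0.05. This was Pdk4, which rose. Unless another test is named, p-values of single genes come from edgeR (quasi-likelihood, Benjamini-Hochberg over all 12690 genes). Among all tested genes 5.63% passed in either direction and 1.65% as higher in LLC. The median log2 fold change of the 9 genes was 0.28, against 0.00 for all tested genes, and 6 of the 9 were higher on average in LLC. In 0 of the 9 did all LLC values lie above, or all lie below, the Control range, which 16% of tested genes showed (6.4% above and 9.57% below), so the ranges of the groups overlapped in each of the 9. The DESeq2 Wald test also gave 1 of 9, the same gene (8.31% of all genes passed there), and so did the fit without LLC 1. The intervals of the other 8 genes were of different widths. The 95% confidence intervals of the fold change, not adjusted for the number of genes, lay inside 1.5-fold for Pdk2 (0.882 to 1.12), Lpl (0.918 to 1.23), Cpt1a (0.700 to 1.06) and Cd36 (1.01 to 1.49). They reached further for Ucp3 (up to 1.74), Angptl4 (up to 2.70), Ucp2 (1.11 to 3.83) and, on the lower side, Cpt1b (0.528 to 0.953). Those of Cd36, Ucp2 and Cpt1b left out 1, although none of the 3 passed after adjustment over all genes. In bulk muscle, fewer cells of a type and less RNA per cell cannot be told apart.

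**Figure D1:**
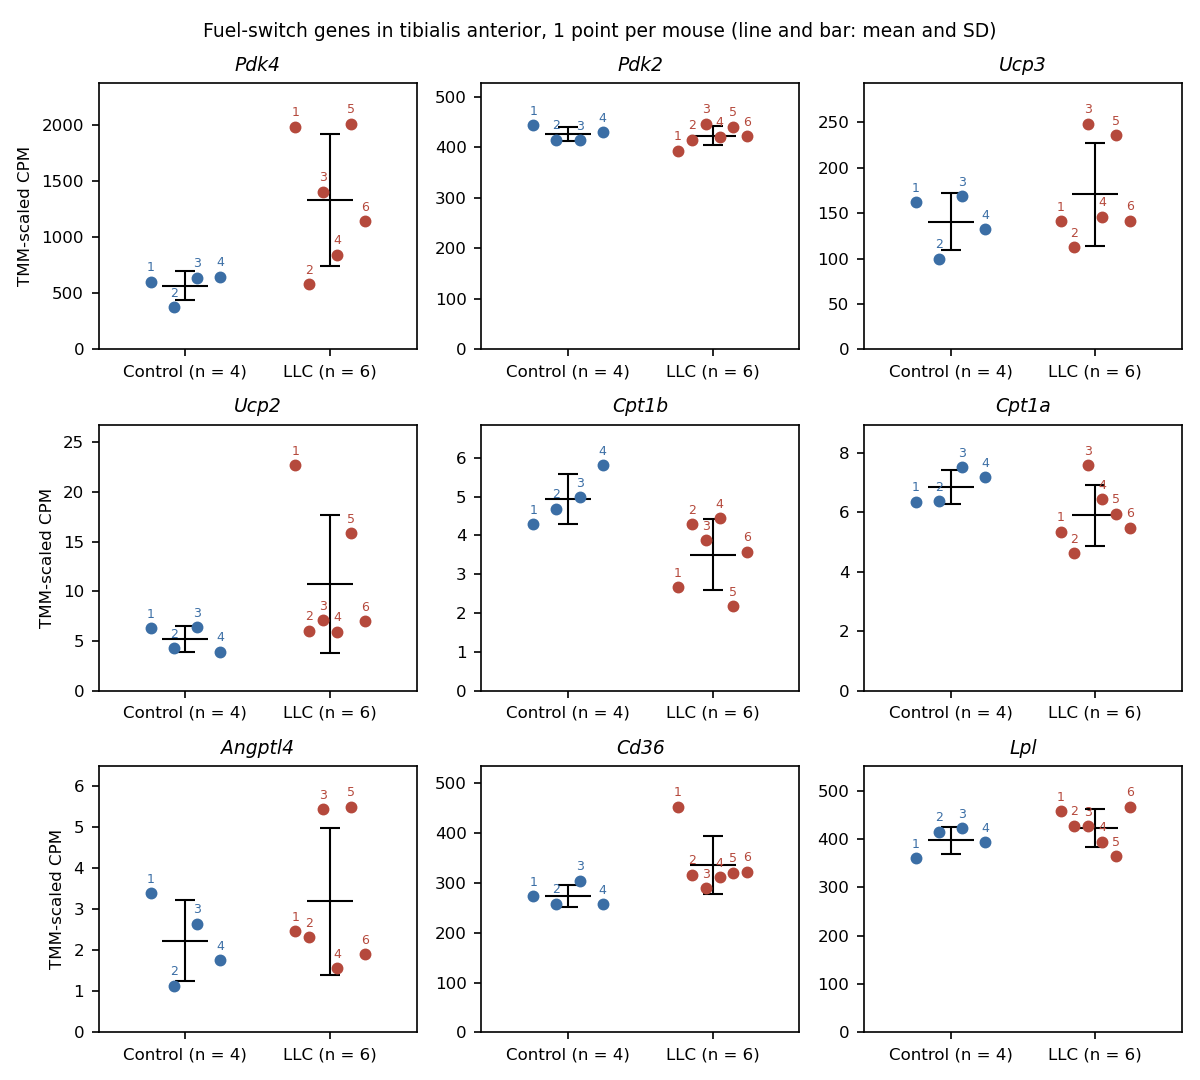
TMM-scaled CPM (y axis, from 0, a separate scale for each gene) of the 9 genes in the 4 Control mice (blue) and the 6 LLC mice (red), 1 point per mouse labelled with its replicate number, with mean and SD in black. Pdk4 lies above every Control mouse in 5 of 6 LLC mice, while Pdk2 stays between 393 and 447 CPM in all 10.

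**Figure D2:**
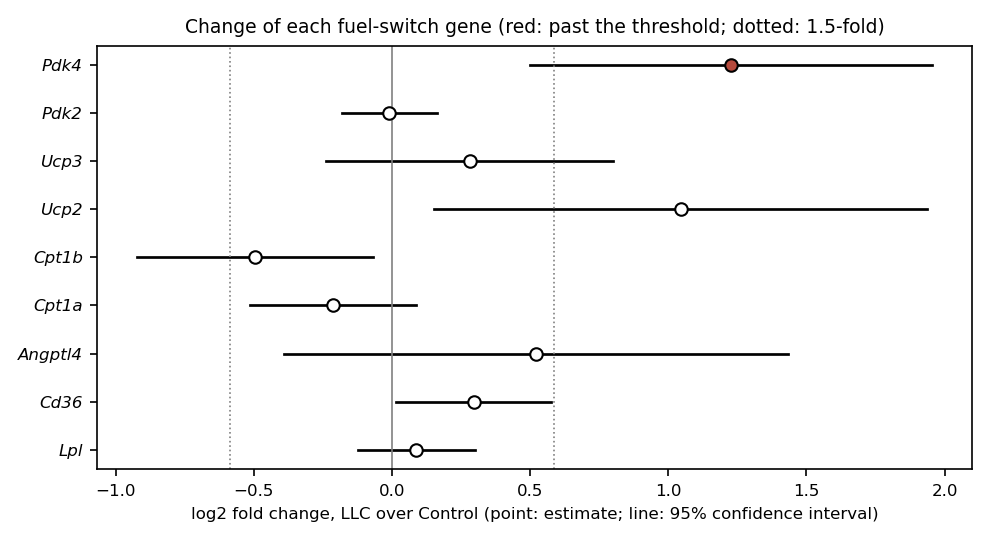
Log2 fold change of LLC over Control (x axis) for the 9 genes, with the estimate of edgeR's quasi-likelihood fit as a point and its 95% confidence interval as a line, and 1.5-fold dotted. Pdk4 is past the threshold and filled in red, the intervals of Pdk2, Lpl, Cd36 and Cpt1a stay within 1.5-fold, and those of Ucp2 and Angptl4 are wide.

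The pyruvate dehydrogenase kinases were examined first. PDK4 is the kinase isoform that muscle induces in fasting, and PDK2 is a widely expressed isoform of the same family. Pdk4 (ENSMUSG00000019577, chromosome 6, 5483351 to 5496309 of GRCm38, minus strand) was at 604, 375, 640 and 649 CPM in Control 1 to 4. In LLC 1 to 6 it was at 1982, 580, 1405, 844, 2009 and 1139 CPM. Thus 5 of 6 LLC mice exceeded every Control mouse, and LLC 2 lay within the Control range. The log2 fold change was 1.23 ± 0.33 (SE), a 2.34-fold rise with a 95% interval of 1.41 to 3.88 (adjusted p = 0.0480). The spread was wide, with a coefficient of variation of 44.3% over the 6 LLC mice and 22.8% over the 4 Control mice.

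The call of Pdk4 sat close to the threshold. It was lost in 7 of 10 fits that each left out 1 mouse. Without Control 1, 2, 3 or 4 the adjusted p in edgeR was 0.119, 0.137, 0.111 and 0.107, and without LLC 3, LLC 5 or LLC 6 it was 0.0693, 0.0967 and 0.0801. In these 10 fits the log2 fold change stayed between 1.07 and 1.40. Without LLC 1 it was 1.09 and without LLC 2 it was 1.40, and the call was kept in both. With robust dispersion the adjusted p was 0.0509, and with the DESeq2 Wald test 0.00332.

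Pdk2 (ENSMUSG00000038967, chromosome 11, 95026258 to 95041354, minus strand) was the steadiest of the 9 genes, at 444, 415, 415 and 430 CPM in Control 1 to 4 and at 393, 416, 447, 422, 441 and 422 CPM in LLC 1 to 6. The 2 groups overlapped throughout. Its log2 fold change was -0.01 ± 0.08 (SE; adjusted p = 0.948), and the sign of so small a value turned with the scaling of the libraries.

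The sequences upstream of Pdk4, of its sister gene Pdk2 and of Ucp3, which is described further on, are shown to set the kinase gene that rose beside the steady one and beside the gene whose pattern over mice was close to that of Angptl4. They are RefSeq promoter windows of GRCm38.p6, read 5′ to 3′ on the strand of the gene, cut where the first exon of GENCODE M21 begins, with CG dinucleotides in capitals. For Pdk4 the stretch is chr6:5496310-5496528 (minus strand), for Pdk2 chr11:95041372-95041621 (minus strand, the outer of 2 start sites) and for Ucp3 chr7:100472741-100472989 (plus strand).
Pdk4: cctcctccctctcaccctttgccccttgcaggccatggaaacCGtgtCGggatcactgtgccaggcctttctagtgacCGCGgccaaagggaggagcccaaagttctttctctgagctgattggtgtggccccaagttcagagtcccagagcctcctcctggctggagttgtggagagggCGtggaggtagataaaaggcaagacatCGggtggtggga
Pdk2: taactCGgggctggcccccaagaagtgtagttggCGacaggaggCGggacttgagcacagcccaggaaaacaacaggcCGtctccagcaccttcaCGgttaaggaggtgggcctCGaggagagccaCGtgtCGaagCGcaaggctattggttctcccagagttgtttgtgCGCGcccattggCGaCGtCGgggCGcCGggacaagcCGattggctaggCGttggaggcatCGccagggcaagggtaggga
Ucp3: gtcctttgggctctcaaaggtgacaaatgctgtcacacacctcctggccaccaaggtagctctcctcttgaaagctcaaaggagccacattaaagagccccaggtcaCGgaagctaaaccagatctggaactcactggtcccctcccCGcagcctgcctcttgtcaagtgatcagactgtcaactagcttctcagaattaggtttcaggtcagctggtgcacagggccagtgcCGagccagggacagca
In the 250 bases before the start the Pdk2 window holds 19 CG dinucleotides, the Pdk4 window 6 and the Ucp3 window 3, while the median over all 32851 windows of the table was 6 (quartiles 2 and 16), and 92.1% of windows held at least 1. The letters of 4 motifs were searched on both strands of the 7 windows of 300 bases that the table holds for 6 of the 9 genes (Pdk4, Pdk2, Ucp3, Ucp2, Cpt1a and Cd36). These were the direct repeat of PPAR and RXR, a pair of AGGNCA half-sites with 1 base between them, found in 0.381% of all windows, a FoxO core, GTAAACA, in 3.65%, a glucocorticoid receptor site, GNACA and TGTNC with 3 bases between them, in 0.475%, and a site of estrogen-related receptors, TCAAGGTCA, in 0.423%. None of these letters were found in the 7 windows. These windows are short and reach only 250 bases upstream.

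The ratio of Pdk4 to Pdk2 within a mouse does not depend on library scaling. It was 1.36, 0.904, 1.54 and 1.51 in Control 1 to 4 and 5.04, 1.40, 3.14, 2.00, 4.56 and 2.70 in LLC 1 to 6. The log2 ratio was 1.51 ± 0.70 in LLC (SD, n = 6) and 0.38 ± 0.36 in Control (SD, n = 4), and 5 of 6 LLC mice exceeded every Control mouse. An exact permutation test over all 210 splits gave the difference of 1.14 a two-sided p of 0.0286 and an adjusted p of 0.0857 over the 3 pairs of paralogs, so it did not pass the correction.

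**Figure D3:**
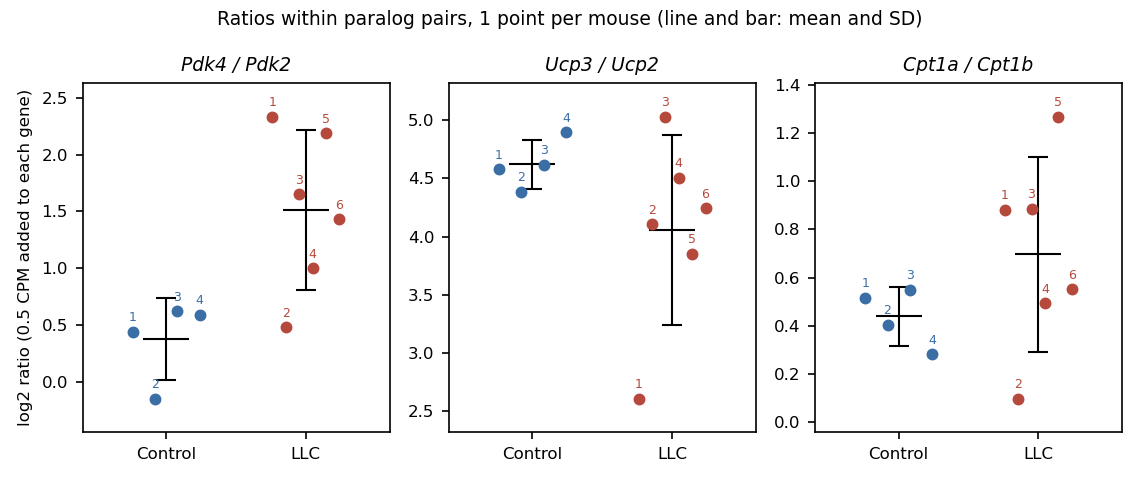
Log2 ratio of 2 paralogs in the same mouse (y axis, 0.5 CPM added to each gene), for Pdk4 to Pdk2, Ucp3 to Ucp2 and Cpt1a to Cpt1b, 1 point per mouse labelled with its replicate number, with mean and SD in black. In the first pair 5 of 6 LLC mice lie above all Control mice, and in the other pairs the groups overlap more.

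Around the kinases, 12 other genes of pyruvate dehydrogenase, its regulators and the mitochondrial pyruvate carrier were tested. Of these 11 were lower on average in LLC and 1 higher, with a median log2 fold change of -0.38. In edgeR 0 passed the threshold in either direction. With the p left unadjusted, 6 fell at or below 0.05, each lower in LLC (27.4% of all tested genes had such a p in either direction), and the same 6 were lower in every LLC mouse than in any Control mouse, as were 9.57% of tested genes. Mpc1, a subunit of the pyruvate carrier, at -0.44 ± 0.11 (SE), and Pdhx, the binding protein of the complex, at -0.44 ± 0.12 (SE), had adjusted p-values of 0.0284 and 0.0460 without reaching 1.5-fold (both named after their values were seen). Exons of Mpc1 overlap those of another gene, 4930506C21Rik. The DESeq2 Wald test gave 1 gene of the list as lower, beside 664 of 12665 genes. This was Dlat, at -0.68 (adjusted p = 0.0445 in that test), also named after its value was seen. The catalytic subunit gene Pdha1 was at 610 ± 38.2 CPM in Control (SD, n = 4) and 514 ± 90.4 CPM in LLC (SD, n = 6), with a log2 fold change of -0.25 ± 0.14 (SE). The other kinases did not pass, with log2 fold changes of -0.15 ± 0.15 for Pdk1 and -0.38 ± 0.27 (SE) for Pdk3. Nor did the phosphatases that undo their work, Pdp1 at -0.46 ± 0.34 (-0.26 without LLC 1) and Pdp2 at 0.19 ± 0.23 (SE). Pdk4 was thus the kinase gene of this family that passed the threshold, and the summed level of the complex list was 1186 to 1948 CPM in LLC against 2027 to 2246 CPM in Control, without overlap. LLC 1, LLC 5 and LLC 6 had the lowest sums.

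The uncoupling proteins are carriers of the inner mitochondrial membrane. UCP3 is the muscle form, induced when fatty acids rise, and UCP2 is found in many cell types, immune cells among them. Ucp3 (ENSMUSG00000032942, chromosome 7, 100472990 to 100486432, plus strand) was at 162, 99.7, 168 and 132 CPM in Control 1 to 4 and at 141, 112, 248, 146, 236 and 141 CPM in LLC 1 to 6. Only LLC 3 and LLC 5 lay above the Control mice, and the other 4 LLC mice were within their range. The log2 fold change of 0.28 ± 0.24 (SE; adjusted p = 0.447) was not larger than the spread between mice.

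Its neighbor Ucp2 (ENSMUSG00000033685, chromosome 7, 100493337 to 100502020, plus strand) was at 6.30, 4.30, 6.38 and 3.94 CPM in Control 1 to 4 and at 22.7, 6.04, 7.12, 5.95, 15.9 and 6.99 CPM in LLC 1 to 6. LLC 1 and LLC 5 were far above the rest, and LLC 2 and LLC 4 lay within the Control range. It missed the threshold at a log2 fold change of 1.05 ± 0.41 (SE) (adjusted p = 0.133, unadjusted p = 0.0254). Without LLC 1 the log2 fold change was 0.70. In DESeq2's Wald test the adjusted p was 0.0579. Of its exonic bases 4.36% overlap the antisense gene Dnajb13. Of 13 neutrophil markers 10 were tested and all 10 passed the threshold as higher, beside 1.65% of all tested genes. The 13 summed to 1.32 to 3.31 CPM in Control and 37.2 to 80.2 CPM in LLC. At such Control levels genes can pass the filter on low counts through the LLC mice alone, so this count is a description. Macrophage markers summed to 27.2 to 42.0 CPM in Control and 23.6 to 43.5 CPM in LLC. Of 9 tested, 1 passed as higher (Itgam, 1.97) and 1 as lower (Mrc1, -1.05), beside 1.65% and 3.99% of all tested genes. Among the neutrophil markers Elane was at 0 counts in all 10 libraries. The mice with the highest neutrophil sums were LLC 5 and LLC 4, and those with the highest Ucp2 were LLC 1 and LLC 5. The part of these cells in the Ucp2 level was not tested.

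Within a mouse the ratio of Ucp3 to Ucp2 was 23.2 to 33.5 in Control and 6.22 to 34.9 in LLC, lowest in LLC 1 and highest in LLC 3. The groups differed by -0.56 on the log2 scale (p = 0.181, two-sided exact permutation test, adjusted p = 0.248 over the 3 pairs), and 4 of 6 LLC mice lay below and 1 above every Control mouse. Without LLC 1 it was -0.27, so the size of this difference rests on that mouse.

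CPT1 is the gatekeeper of fatty acid entry into mitochondria, with a muscle form, Cpt1b, and a liver form, Cpt1a. Neither was higher in LLC. Cpt1b (ENSMUSG00000078937, chromosome 15, 89416405 to 89425863, minus strand) was at 4.29, 4.69, 4.98 and 5.81 CPM in Control 1 to 4 and at 2.67, 4.29, 3.88, 4.43, 2.18 and 3.58 CPM in LLC 1 to 6. LLC 1, LLC 3, LLC 5 and LLC 6 lay below every Control mouse. At -0.50 ± 0.20 (SE) on the log2 scale it did not pass (adjusted p = 0.135), and it rests on 44 to 106 counts per library.

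Cpt1a (ENSMUSG00000024900, chromosome 19, 3322334 to 3385733, plus strand) was at 6.36, 6.37, 7.52 and 7.18 CPM in Control 1 to 4 and at 5.35, 4.63, 7.59, 6.45, 5.95 and 5.48 CPM in LLC 1 to 6. LLC 3 was above and 4 LLC mice below the Control range. The log2 fold change was -0.21 ± 0.14 (SE; adjusted p = 0.319). The ratio of Cpt1a to Cpt1b was 1.24 to 1.51 in Control and 1.08 to 2.73 in LLC, a log2 difference of 0.26 that did not exceed the spread (exact permutation test, two-sided, p = 0.248, adjusted p = 0.248 over the 3 pairs).

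The rest of the carnitine shuttle and the control of malonyl-CoA, the inhibitor of CPT1, showed 0 of 8 genes past the threshold, 4 higher and 4 lower on average, with a median log2 fold change of -0.01. Cpt2, which hands the fatty acid back to coenzyme A inside the mitochondrion, had a log2 fold change of -0.04 ± 0.08, and the carrier Slc25a20 one of -0.17 ± 0.09 (SE). Acacb, which makes malonyl-CoA in muscle, was at 0.45 ± 0.18 (adjusted p = 0.149), and Mlycd, which removes it, at 0.33 ± 0.13 (SE; adjusted p = 0.145). For Acacb LLC 1 was highest, at 733 CPM against 355 to 453 CPM in the other LLC mice and 313 to 372 CPM in Control, and without LLC 1 its log2 fold change was 0.27 (adjusted p = 0.0536).

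Angptl4, Lpl and Cd36 act on the delivery of fatty acids. ANGPTL4 is a secreted inhibitor of lipoprotein lipase and a classical PPAR target. Angptl4 (ENSMUSG00000002289, chromosome 17, 33773750 to 33781830, minus strand) was at 3.39, 1.14, 2.65 and 1.75 CPM in Control 1 to 4 and at 2.47, 2.32, 5.44, 1.56, 5.50 and 1.90 CPM in LLC 1 to 6. As for Ucp3, LLC 3 and LLC 5 alone lay above the Control range, and the other 4 LLC mice were within it. The log2 fold change was 0.52 ± 0.42 (SE; adjusted p = 0.422), on 23 to 111 counts per library. The 95% interval of the fold change reached from 0.763 to 2.70, so these mice leave its direction undecided.

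Lpl (ENSMUSG00000015568, chromosome 8, 68880491 to 68907448, plus strand), the lipase itself, was at 360, 414, 422 and 393 CPM in Control 1 to 4 and at 457, 427, 426, 394, 364 and 467 CPM in LLC 1 to 6. Above every Control mouse were 4 LLC mice, and LLC 4 and LLC 5 were within the Control range. It was among the steadiest of the 9, with a log2 fold change of 0.09 ± 0.10 (SE; adjusted p = 0.562). Of its 14 listed partners and of the lipases that act inside the fiber, 11 were tested (the others were too low) and 0 passed, with 8 higher on average and a median of 0.12. Gpihbp1, which anchors the lipase on the capillary wall, had a log2 fold change of 0.08 ± 0.19, and Pnpla2, the triglyceride lipase of the fiber, one of 0.32 ± 0.32 (SE). Without LLC 1 that of Pnpla2 was -0.08 and the median of the list 0.05.

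Cd36 (ENSMUSG00000002944, chromosome 5, 17781690 to 17888801, minus strand), the fatty acid translocase, was at 273, 258, 305 and 258 CPM in Control 1 to 4 and at 453, 316, 290, 311, 320 and 322 CPM in LLC 1 to 6. All LLC mice but LLC 3 exceeded every Control mouse, and LLC 1 stood far above the other 5. The log2 fold change was 0.30 ± 0.13 (SE; adjusted p = 0.165, unadjusted p = 0.0402), and 0.20 without LLC 1 (adjusted p = 0.0794). Cd36 is also made by capillary cells and fat cells, Lpl also by fat cells, and Gpihbp1 by capillary cells. The 12 endothelial markers summed to 454 to 540 CPM in Control and 466 to 530 CPM in LLC, with 1 past the threshold, Kdr, as lower (-1.13), beside 3.99% of all tested genes. With no fold minimum 4 of the 12 passed as lower and 1 as higher, beside 6.99% of all genes in either direction. In 4 every LLC mouse lay below every Control mouse and in 1 above, beside 9.57% and 6.4% of all genes. The 5 adipocyte markers tested were lower on average and 0 passed, with a sum of the 9 listed markers of 5.70 to 24.4 CPM in Control and 6.27 to 14.9 CPM in LLC, and Plin1, Lep, Adrb3 and Pck1 were too low to be tested. The part of these cells in the levels was not tested.

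Among 13 other genes of fatty acid uptake, binding and activation, 1 passed the threshold as higher and 0 as lower (1.65% and 3.99% of all tested genes did), with a median of -0.04. A count of 1 in 13 is no result about the list. The gene was Acsl3, an acyl-CoA synthetase linked to lipid droplets, at 14.9 ± 5.65 CPM in Control (SD, n = 4) and 27.7 ± 5.92 CPM in LLC (SD, n = 6), up by 0.89 ± 0.23 on the log2 scale (SE; adjusted p = 0.0414). Control 3, at 23.4 CPM, exceeded LLC 4, at 17.3 CPM. Its call was lost without Control 1, 2 or 4 and without LLC 2, 3, 5 or 6, with adjusted p-values of up to 0.132, and its exons overlap those of Utp14b. Fabp3, the fatty acid binding protein of muscle, was at 235 ± 12.6 CPM in Control (SD, n = 4) and 217 ± 40.3 CPM in LLC (SD, n = 6), with a log2 fold change of -0.11 ± 0.14 (SE). With no fold minimum 1 of the 13 also passed as lower, beside 6.99% of all genes in either direction. This was Got2, at -0.55 (adjusted p = 0.0457), named after its value was seen. In 3 of the 13 every LLC mouse lay below every Control mouse and in 0 above, beside 9.57% and 6.4% of all genes.

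The 9 genes did not share 1 pattern over the mice. Relative to the Control mean, LLC 1 had its largest values in Ucp2 (2.04 on the log2 scale), Pdk4 (1.84) and Cd36 (0.73), but only 0.03 in Ucp3 and 0.20 in Angptl4. LLC 5 was high in Pdk4 (1.86), Ucp2 (1.54), Angptl4 (1.21) and Ucp3 (0.77), and lowest in Cpt1b (-1.01). LLC 3 was high in Pdk4 (1.34), Angptl4 (1.20) and Ucp3 (0.85), and exceeded every Control mouse in 7 of the 9 genes, more than any other LLC mouse. LLC 2 and LLC 4 exceeded every Control mouse in 2 genes each. Control 2 was the lowest of all 10 mice in Pdk4 (-0.56), Ucp3 (-0.46) and Angptl4 (-0.66), so that mice differed in these 3 genes within the Control group too.

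**Figure D4:**
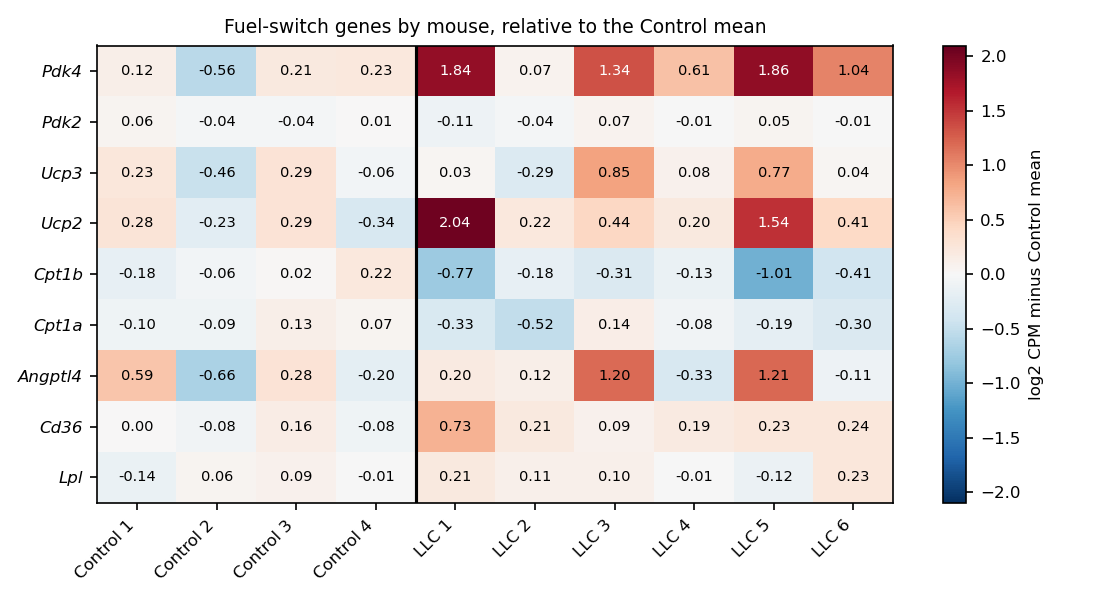
Log2 CPM of the 9 genes in each mouse relative to the Control mean (color and printed value, in log2 units), Control mice left and LLC mice right of the black line. Pdk4, Ucp3 and Angptl4 are high in LLC 3 and LLC 5 and low in Control 2, Ucp2 and Cd36 are highest in LLC 1, and Pdk2 and Lpl hardly vary.

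Likeness was measured over the 10 samples as the root mean square distance between the per-sample log2 CPM of 2 genes, each relative to its Control mean, among 10324 genes with an average log2 CPM of at least 1. It is a description, and all genes share the libraries and their depth. Nearest to Pdk4 were Acot2 (distance 0.28), Cebpb (0.33), Pnrc1 (0.33) and Adamts9 (0.33). Of these Acot2, Pnrc1 and Adamts9 passed the threshold as higher, as did 1.65% of all tested genes. The distance includes the difference between the groups. Genes near a called gene are therefore likely to be called too, and this count is no result. Nearest to Angptl4 were Zfp36 (0.36), Ucp3 (0.38) and Nfil3 (0.45), and nearest to Ucp3 were Ctu1 (0.23), Zfp36 (0.25) and Hyi (0.26), of which 0 passed. Pdk4 was not among the 3 nearest genes of Ucp3 or Angptl4.

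To ask how far the wider program moved, 30 other genes of fat oxidation known to respond to PPAR receptors were counted. Of these 27 were tested, 1 passed the threshold as higher and 0 as lower, which is 3.70% beside 5.63% of all tested genes. The median log2 fold change was -0.11, with 11 genes higher and 16 lower on average, and it was -0.0020 without LLC 1. The gene that passed was Acot2, a mitochondrial acyl-CoA thioesterase. It was at 10.4, 6.86, 9.73 and 8.60 CPM in Control 1 to 4 and at 31.4, 9.88, 13.9, 13.8, 25.7 and 20.7 CPM in LLC 1 to 6, so that LLC 2 alone lay within the Control range, as for Pdk4. Its log2 fold change was 1.11 ± 0.30 (SE; adjusted p = 0.0459). The call was lost without any 1 of the 4 Control mice and without LLC 5 or LLC 6 (adjusted p of up to 0.133). Acot2 has a near-identical neighbor, Acot1, the cytosolic form, with which reads may be shared. Acot1 was too low to be tested, at 0.0530 to 0.198 CPM in Control and 0.226 to 1.65 CPM in LLC, on 1 to 32 counts.

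The enzymes of beta-oxidation themselves stayed close to Control. Hadha, of the trifunctional protein, had a log2 fold change of 0.03 ± 0.08, the medium-chain dehydrogenase gene Acadm -0.14 ± 0.14, and the very-long-chain dehydrogenase gene Acadvl -0.22 ± 0.10 (SE), with adjusted p-values of 0.853, 0.515 and 0.163. The lipid droplet genes Plin2 and Plin5 were at 0.37 ± 0.25 and 0.47 ± 0.20 (SE; adjusted p = 0.334 and 0.156). For Plin5 LLC 1 was highest, at 28.6 CPM, and the other LLC mice were at 13.3 to 18.5 CPM. Without LLC 1 the log2 fold changes were 0.10 for Plin2 and 0.30 for Plin5. Fgf21, a fasting hormone gene of liver, stood at 0 to 3 counts per library. It was not tested, and at this depth no difference was detectable for it.

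The receptors and their partners were not called either. Of 24 genes in this list 0 passed in edgeR, with 13 higher and 11 lower on average and a median of 0.06. With the p unadjusted, 6 were at or below 0.05 as higher and 4 as lower, beside 27.4% of all genes in either direction. The DESeq2 Wald test gave 1 as higher (Foxo3) and 1 as lower (Sirt3), beside 8.31% of all genes in either direction. Ppara was at 5.89 ± 0.533 CPM in Control (SD, n = 4) and 4.16 ± 1.94 CPM in LLC (SD, n = 6), with the lowest value, 0.793 CPM, in LLC 5, and its log2 fold change was -0.50 ± 0.37 (SE). Ppard was at 0.31 ± 0.18, Pparg at -0.31 ± 0.27 and the coactivator gene Ppargc1a at -0.40 ± 0.28 (SE), with adjusted p-values of 0.266, 0.456 and 0.348, and without LLC 1 Ppard was at 0.15 and Ppargc1a at -0.63. Of the factors that act beside PPAR on Pdk4, Foxo1 had a log2 fold change of 1.43 ± 0.54 and Klf15, a factor induced by glucocorticoids, one of 0.95 ± 0.37 (SE), with adjusted p-values of 0.121 and 0.133. LLC 1 was highest in both, with Foxo1 at 126 CPM against 16.9 to 34.0 CPM in the other LLC mice and 12.8 to 17.6 CPM in Control, and without LLC 1 the log2 fold change of Foxo1 was 0.68 (adjusted p = 0.0274), past the threshold, and that of Klf15 0.50 (adjusted p = 0.0474), below 1.5-fold. Exons of Foxo1 overlap those of Gm20402. In 3 genes of the list all LLC mice lay above every Control mouse and in 3 below (6.4% and 9.57% of all tested genes did), all 6 named after their values were seen. Above were Foxo3 at 0.83 ± 0.29, Foxo4 at 0.27 ± 0.07 and the partner receptor gene Rxra at 0.19 ± 0.08 (SE), with adjusted p-values of 0.103, 0.0418 and 0.143. Below were the mitochondrial deacetylase gene Sirt3 at -0.86 ± 0.24 and the estrogen-related receptor genes Esrra at -0.71 ± 0.24 and Esrrg at -0.54 ± 0.20 (SE), with adjusted p-values of 0.0528, 0.0977 and 0.115. Sirt3 passed the threshold without LLC 1, 2 or 3. Exons of Esrra and Sirt3 overlap those of other genes.

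Fasting genes of muscle that lie outside fat oxidation were set beside these. Their list, like the others, was chosen with earlier results of these data known. The paper had already reported Fbxo32 and Trim63 as raised in these mice. The contrast of this list with the other lists is therefore a description, not a test. In a list of 24 genes of the glucocorticoid and FoxO response, 22 were higher on average, with a median log2 fold change of 1.35, and 2 passed the threshold as higher and 0 as lower (1.65% and 3.99% of all tested genes did). The DESeq2 Wald test gave 12 as higher, beside 3.06% of all genes, and without adjustment 19 were at or below 0.05 as higher, beside 12.7%. Without LLC 1 the median was 0.86 and 11 passed as higher, beside 2.28% of all genes, and with the replicate number as a block the median was 0.87 and 0 passed, beside 0.331%. Without another mouse the count was 0 to 7, with 0 to 1 without a Control mouse. It was 0 without LLC 5, 1 without LLC 6, 4 without LLC 3 and 7 without LLC 2 or LLC 4. Over all tested genes 110 to 131 passed as higher without a Control mouse, of 12828 to 12839. Without LLC 2, 3, 4, 5 or 6 these were 249, 222, 248, 128 and 134, of 12617 to 12664. The genes past the threshold were Fbxo32, the atrogin ubiquitin ligase, at 2.03 ± 0.49 (SE; adjusted p = 0.0307), and Pik3ip1, an inhibitor of PI3 kinase, at 0.59 ± 0.14 (SE; adjusted p = 0.0284). Fbxo32 was at 269 to 385 CPM in Control and at 3630, 865, 788, 517, 1756 and 1001 CPM in LLC 1 to 6, so that no LLC mouse was within the Control range. Its call was lost without any 1 of the 4 Control mice and without LLC 5 (adjusted p of up to 0.0980), and that of Pik3ip1 without Control 1, 3 or 4 and without LLC 3, 4, 5 or 6 (up to 0.103). Trim63, the MuRF1 ligase, was at 2.19 ± 0.66 (SE; adjusted p = 0.0718), and at 1.46 without LLC 1 (adjusted p = 0.0338), past the threshold. Exons of Fbxo32 and Pik3ip1 overlap those of another gene (Gm15943 and Gm12592).

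Glucose uptake and glycogen genes were the last list. Of 20 genes 17 were lower on average, with a median of -0.43, and 2 passed as higher and 1 as lower, against 1.65% and 3.99% of all tested genes. Ppp1r3c, which targets a phosphatase to glycogen, at 1.04 ± 0.27, and Pfkfb3, which raises the activator of phosphofructokinase, at 1.14 ± 0.31 (SE), rose, with adjusted p-values of 0.0429 and 0.0457. Pfkfb1, another form of that enzyme, fell by 0.73 on the log2 scale (SE 0.20, adjusted p = 0.0480). The insulin-sensitive glucose transporter gene Slc2a4 had a log2 fold change of -0.58 ± 0.15 (SE; adjusted p = 0.0431) and the hexokinase gene Hk2 one of -0.54 ± 0.14 (SE; adjusted p = 0.0459), both below 1.5-fold and both lower in 6 of 6 LLC mice than in any Control mouse. Of the 20 genes 9 were lower in every LLC mouse than in any Control mouse, and 1 was higher. Among all tested genes 9.57% and 6.4% were. The calls of Ppp1r3c, Pfkfb3 and Pfkfb1 were each lost without any 1 of the 4 Control mice. Among LLC mice the call of Ppp1r3c was lost without LLC 3, 5 or 6, that of Pfkfb3 without LLC 3, 4, 5 or 6 and that of Pfkfb1 without LLC 2, 5 or 6, with adjusted p-values of up to 0.111, 0.126 and 0.138. Without LLC 1, 2, 3 or 4 the genes of the list past the threshold as lower were 3, 4, 3 and 3. Over all tested genes they were 678 of 12624, 542 of 12656, 473 of 12664 and 557 of 12617 in those fits. Exons of Pfkfb1 overlap those of Apex2.

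**Figure D5:**
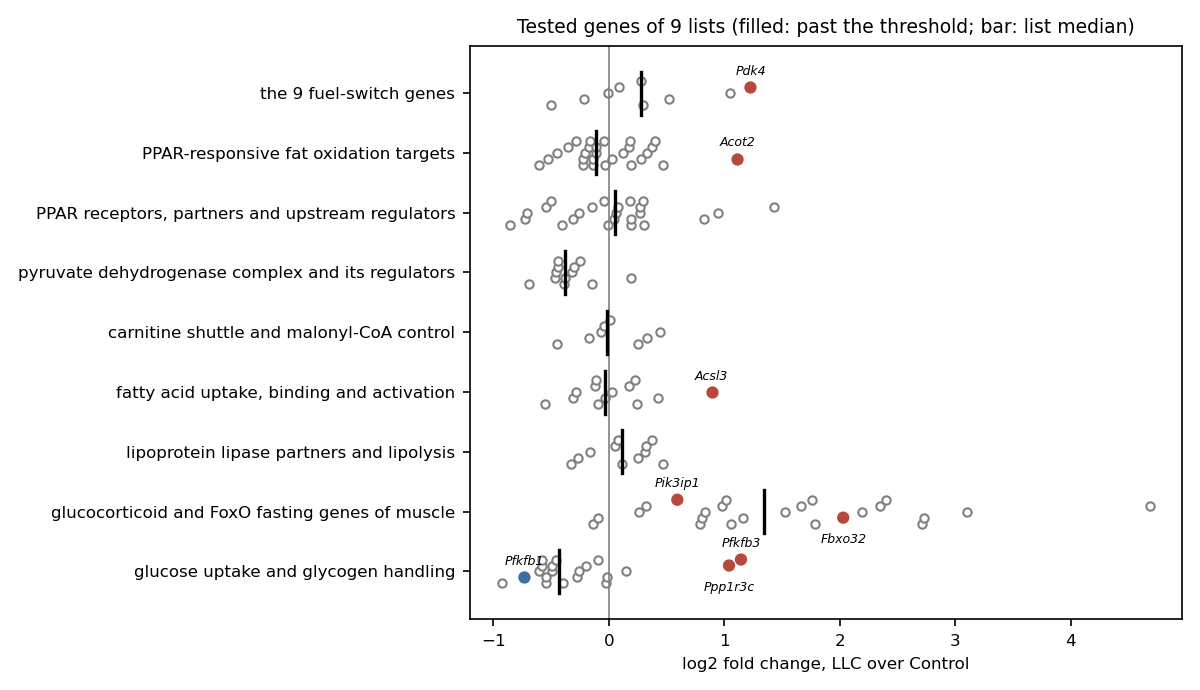
Log2 fold change of LLC over Control (x axis) for each tested gene of the 9 fuel-switch genes and 8 lists of related genes, 1 circle per gene, with genes past the threshold filled (red higher, blue lower) and named, and a bar at each list's median. PPAR-responsive genes center near 0 with Acot2 apart, and glucocorticoid and FoxO genes center at 1.35 (0.86 without LLC 1). The lists were chosen with earlier results of these data known.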

How the data were processed

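RNA of 4 Control and 6 LLC muscles was analysed, 1 library per mouse, grouped by the sample labels. The authors mapped paired-end reads of stranded total RNA libraries with TopHat to build mm10 and counted them with HTSeq, and the deposited values are raw counts per gene, not normalized or pooled. Each sample lists 39179 Ensembl genes, of which 37607 had a symbol in the reference tables, and positions and overlaps come from GENCODE M21 on the same build. The counting annotation and the strand setting are not given for these gene identifiers, so overlaps are stated beside genes.

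Counts were scaled by TMM factors, filtered by filterByExpr (count minimum 10), and LLC was compared with Control over all 12690 genes in a quasi-likelihood fit of edgeR 4.0.16 under R 4.3.3, without covariates. Values per sample are TMM-scaled CPM. Intervals of fold changes come from this fit and include the spread between mice. The floor of 3 counts covers counting error only, since reads without molecular identifiers are not independent molecules. Ratios of paralogs (0.5 CPM added) were compared by exact permutation tests. Replicate pairs differed by more than sampling noise (chi-square per degree of freedom 3.71 to 8.11 in Control and 7.92 to 181 in LLC). The members and gene lists were chosen with earlier results of these data known. Genes named are the 9, key genes of each list, genes of each list past the threshold (up to 5) and the nearest genes of Pdk4 (5), Angptl4 (3) and Ucp3 (3). Some genes that this rule names are not reported here. Scripts were tested on simulated data. Alternatives covered scaling (median-of-ratios, upper-quartile, mitochondrial genes left out), no filter, DESeq2 1.42.0 (the authors' tool), limma 3.58.1 voom with quality weights, robust dispersion, other thresholds, a replicate block and single mice left out.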

Additional observations from a re-analysis of the deposited data

Results flagged for a closer look

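In a search of 24 groups of samples (9 genes and 3 ratios in each group), 2 held a mouse distant from its fellows, and chance gives 1.2 at 1 in 20. Pdk4 in Control 2 was at 375 CPM, far below the other Control mice at 604 to 649 CPM (gap over range 0.834). Cd36 in LLC 1 was at 453 CPM, far above the other LLC mice at 290 to 322 CPM (gap over range 0.799).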

How the results depend on the processing

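The count of fuel-switch genes past the threshold was 1 and became 0 with robust dispersion and with the replicate number as a block, and 2 (Pdk4 and Ucp2) with an unadjusted p. It ranged from 0 to 1 over the fits that each left out a mouse. That of the PPAR-responsive genes was 1, became 0 with the block and ranged from 0 to 1 without single mice. The ratio of Pdk4 to Pdk2 passed the correction without LLC 2 alone, and over the fits without 1 mouse its log2 difference ranged from 0.96 to 1.34 and its adjusted p from 0.0476 to 0.214. The log2 fold change of Pdk2 turned positive with median-of-ratios factors (0.0015), no filter (0.0014), DESeq2 (0.0015) and voom (0.0015), and without Control 1 (0.011), LLC 1 (0.019) or LLC 2 (0.0080), within a range of -0.025 to 0.019 without single mice. The cause of these shifts was not tested. The direction of the other 8 genes and of the 3 ratios held in all alternatives. The median of all genes was -0.03 with upper-quartile factors.

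The replicate numbers belong to different animals and did not pair them (correlations of deviations -0.029, 0.0093, -0.081 and 0.13). With the replicate block 112 genes passed in place of 715, and Pdk4 had a log2 fold change of 0.96 (adjusted p = 0.176, edgeR's quasi-likelihood test). Cpt1b, Angptl4, Ucp2 and Cpt1a rest on few counts, which limits their precision.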
